A study of Mus musculus with 30 samples.

Results

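Bhlhe40 (encoding DEC1), Bhlhe41 (encoding DEC2) and Ciart (encoding CIART, also called CHRONO) are the 3 genes of the table, out of 51904, that were chosen by symbol as the DEC and CIART repressors of the circadian clock. Their levels were read in retinal pigment epithelium (RPE), the pigmented layer behind the photoreceptors, from 30 wild type male mice of strain C57BL/6, aged 10 to 13 weeks. The study asked how transcript levels in this tissue follow day and night, with 5 mice at each zeitgeber time (ZT) of 0, 2, 4, 9, 14 and 19 h. Each library came from 1 eye of 1 mouse, as clumps of RPE lifted off the choroid, and no treatment or mutation is labelled in any group. Left and right eyes numbered 3 and 2 at ZT0, 1 and 4 at ZT2, 5 and 0 at ZT4, and 2 and 3 at ZT9. At ZT14 they numbered 4 and 1, and at ZT19 1 and 4, so eye side is partly tied to time. ZT0 is lights-on and ZT12 lights-off by convention, which the labels do not state. All 3 genes passed the filter on low values, and none passed the adjusted threshold for a 24 h rhythm, which 0.108% of the tested genes did.

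In the mammalian clock, CLOCK and BMAL1 bind E-boxes as a pair and switch on genes whose products later shut them off. DEC1 and DEC2 are basic helix-loop-helix repressors of the Orange subfamily that bind the same E-boxes and so oppose CLOCK and BMAL1, and their own genes are E-box targets. CIART binds BMAL1 and represses the pair, and in mouse liver its transcript cycles with a high amplitude. The RPE holds a clock of its own and clears shed photoreceptor tips in a daily burst.

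The promoters of Ciart and Bhlhe41 are shown because both hold the E-box letters CACGTG, written in capitals. The sequences are the 250 bases before the transcript start from RefSeq (GRCm38.p6), read 5′ to 3′ on the minus strand, at chr3:95882229-95882478 for Ciart and chr6:145865421-145865670 for Bhlhe41. The table of promoters matched 2 of the 3 genes by symbol.
Ciart: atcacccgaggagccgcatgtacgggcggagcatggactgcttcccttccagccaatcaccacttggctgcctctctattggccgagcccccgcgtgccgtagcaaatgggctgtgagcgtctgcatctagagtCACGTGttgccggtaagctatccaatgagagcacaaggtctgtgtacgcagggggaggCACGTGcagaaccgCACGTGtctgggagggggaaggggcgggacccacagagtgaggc
Bhlhe41: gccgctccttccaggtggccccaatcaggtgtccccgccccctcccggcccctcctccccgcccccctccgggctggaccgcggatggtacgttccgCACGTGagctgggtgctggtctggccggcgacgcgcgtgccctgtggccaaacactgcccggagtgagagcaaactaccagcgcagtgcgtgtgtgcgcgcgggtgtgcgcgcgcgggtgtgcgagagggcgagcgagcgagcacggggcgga
Ciart carried 3 such sites, whose first bases lie 116, 58 and 44 bases before the start. Bhlhe41 carried 1 site, 153 bases before the start. These distances are to the RefSeq start. The starts annotated by GENCODE, at 95882251 for Ciart and 145865558 for Bhlhe41, lie inside the printed stretches, so the sites are closer to those. Of 32851 RefSeq promoters of 300 bases (250 before to 50 after the start), 7.15% held at least 1 CACGTG and 0.0883% held at least 3. CACGTG reads the same on both strands and was counted once per site. Neither promoter held, on either strand, CACGTT (in 4.68% of all promoters), the D-box letters TTACGTAA or TTATGTAA (1.06%) or a RORE, the element bound by REV-ERB and ROR proteins (0.435%). Among the 23 other clock genes listed for comparison, 18 had a promoter in the table, and CACGTG was found in 3 of them: Cry1, Per1 and Tef. These letters are a description of the windows and show neither binding nor its lack.

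On the mm10 build, Bhlhe40 (ENSMUSG00000030103) lies on the plus strand of chromosome 6 at 108660629 to 108666925. Bhlhe41 (ENSMUSG00000030256) lies on the minus strand of the same chromosome at 145858243 to 145865558, and Ciart (ENSMUSG00000038550) on the minus strand of chromosome 3 at 95878503 to 95882251. The DEC genes are paralogs with coding parts of 1233 bases (Bhlhe40) and 1230 bases (Bhlhe41). The longest run of identical bases between their longest GENCODE transcripts was 15 bases, shorter than the single reads of 75 bases, and lies in both coding parts. It is printed because it bears on whether a read can match both genes.
DEC shared run: gtcatccagcggact
Each gene also overlaps an annotated gene on the opposite strand, and the sources used here do not say whether counting used strand. 0610040F04Rik shares 118 exon bases with Bhlhe40 and was listed at 0 in 29 of 30 samples. Gm43909 shares 1280 exon bases with Bhlhe41 and did not exceed 1.66 FPKM. C920021L13Rik spans Ciart without sharing an exon base and had a median of 0.50 FPKM with a maximum of 19.1 FPKM.

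The values are the authors' FPKM, which divide the fragments of a gene by its transcript length and by the library's depth. Depth was estimated from the smallest steps between values and ran from 12.4 to 22.9 M reads (mega reads) per library with a median of 17.7 M. At the median depth, 1 FPKM was worth about 51.6 reads for Bhlhe40, 105 for Bhlhe41 and 30.8 for Ciart. The library ZT14 replicate 3 stood apart, with 12754 genes above 0 against 16723 to 19374 in the other 29, and it listed 557 otherwise abundant genes at 0 against 1 to 23. Leaving it out changed no call on the 3 genes. Of 12 RPE marker genes, 11 were above 0 in every library, and the other one, Best1, was above 0 in 22 of 30 with at most 3.93 FPKM. Their summed level ran from 5896 to 19074 FPKM. Keratin-rich surface epithelium markers summed to between 1688 and 17614 FPKM, and skeletal muscle markers also reached 28553 FPKM, so the samples varied in tissue mix. In such bulk samples, fewer cells of a type and less RNA per cell cannot be told apart.

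By level, the order was Bhlhe40, Bhlhe41 and Ciart, with medians over 30 samples of 52.4, 31.7 and 5.62 FPKM. Both DEC genes were above 0 in every library, and Ciart was listed at 0 in 5 of 30. Of all 51904 genes, 2063 had a higher median than Bhlhe40, 3546 than Bhlhe41 and 10424 than Ciart. All mice are plotted by time of day.

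**Figure D1:**
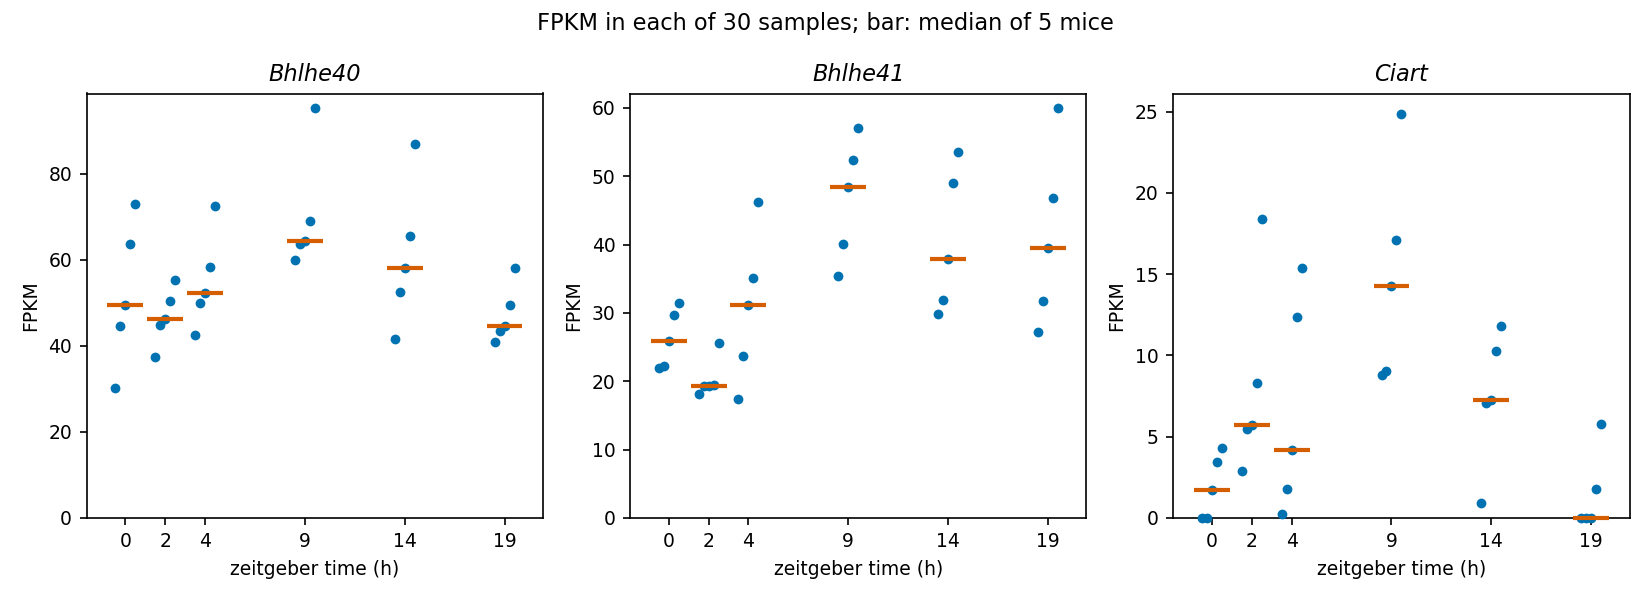
FPKM of Bhlhe40, Bhlhe41 and Ciart (vertical axes) in each of 30 mice (points) against zeitgeber time in hours, with a bar at the median of 5 mice. All 3 genes had their highest median at ZT9, while 3 of 5 mice at ZT19 and 2 of 5 at ZT0 were listed at 0 for Ciart.

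Bhlhe40, whose product DEC1 is also known as a gene induced by low oxygen and by many extracellular signals, was the most abundant of the 3 and had the smallest fitted amplitude. At ZT0 the 5 mice had 73.0, 44.6, 63.6, 49.4 and 30.1 FPKM, and at ZT2 they had 44.7, 55.2, 46.2, 37.3 and 50.4 FPKM. At ZT4 the values were 52.3, 58.3, 42.6, 49.9 and 72.4 FPKM, and at ZT9 they were 68.9, 64.3, 95.4, 63.7 and 59.9 FPKM. At ZT14 they were 87.0, 65.4, 41.5, 52.5 and 58.2 FPKM, and at ZT19 they were 44.6, 43.3, 40.8, 49.5 and 58.0 FPKM. Every mouse at ZT9 lay above every mouse at ZT2 (as in 0.627% of tested genes) and at ZT19 (0.86%), while ZT0, ZT4 and ZT14 overlapped all the other times. The mean was 70.4 ± 14.3 FPKM (SD, n = 5) at ZT9, against 46.8 ± 6.69 at ZT2 and 47.3 ± 6.82 at ZT19. The other means were 52.1 ± 16.7 FPKM at ZT0, 55.1 ± 11.2 at ZT4 and 60.9 ± 17.0 at ZT14. On the log2(FPKM + 1) scale, neighbours in the order ZT2, ZT19, ZT0, ZT4, ZT14, ZT9 differed by at most 0.23, about the SE of 0.21, and thus not beyond their spread.

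A 24 h cosine fitted to all 30 samples gave Bhlhe40 an amplitude, from fitted mean to fitted peak, of 0.29 ± 0.09 (SE) on the log2(FPKM + 1) scale. The fitted peak was at ZT 9.92 ± 1.09 h (SE), and time in this form took up 29.4% of the gene's variance. The limma adjusted p of this rhythm was 0.452 (unadjusted p = 0.0116), and a permutation test of the cosine over 100000 shuffles of the times gave p = 0.00887. The difference from ZT2 to ZT9 was 0.57 ± 0.21 (SE), with a limma adjusted p of 1 (unadjusted p = 0.0110). From ZT9 to ZT19 the level differed by -0.56 ± 0.21, with a limma adjusted p of 0.452. Day (ZT2, ZT4, ZT9) minus night (ZT14, ZT19) was 0.08 ± 0.14 for Bhlhe40, with a limma adjusted p of 0.869. This near-zero contrast was -0.06 once marker scores of 5 other tissues entered the fit.

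Bhlhe41, whose product DEC2 is the closest relative of DEC1, had its lowest mean at ZT2 and its highest mean at ZT9. At ZT0 the 5 mice had 22.2, 21.9, 31.5, 29.7 and 25.9 FPKM, and at ZT2 they had 25.5, 18.2, 19.3, 19.5 and 19.3 FPKM. At ZT4 the values were 17.4, 46.3, 31.2, 35.1 and 23.7 FPKM, and at ZT9 they were 52.4, 48.4, 57.0, 35.4 and 40.0 FPKM. At ZT14 they were 31.8, 29.9, 53.6, 37.8 and 49.0 FPKM, and at ZT19 they were 27.1, 60.0, 31.8, 39.5 and 46.8 FPKM. The 5 mice at ZT2 were all below the mice of ZT9, ZT14 (as in 0.699% of tested genes) and ZT19 (1.03%), and ZT0 was also below ZT9 without overlap (0.609%). The mean was 20.4 ± 2.94 FPKM (SD, n = 5) at ZT2, 26.2 ± 4.34 at ZT0 and 46.6 ± 8.86 at ZT9. It was 30.7 ± 11.1 FPKM at ZT4, 40.4 ± 10.5 at ZT14 and 41.0 ± 13.0 at ZT19. In the order ZT2, ZT0, ZT4, ZT14, ZT19, ZT9 on the log2 scale, neighbours differed by at most 0.42 with an SE of 0.23.

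The cosine fit put the peak of Bhlhe41 at ZT 13.0 ± 0.95 h, later than the fitted peak of Bhlhe40, a difference that was not tested. Its amplitude was 0.46 ± 0.10 (SE), and the cosine took up 45.7% of the variance, the highest share of the 3 genes. The limma adjusted p was 0.119 (unadjusted p = 0.000243), rank 34 of 16741 tested genes, and the permutation test gave p = 0.00052. The difference from ZT2 to ZT9 was 1.15 ± 0.23 on the log2 scale, with a limma adjusted p of 0.0976. From ZT2 to ZT19 it was 0.93 ± 0.23, with a limma adjusted p of 0.135, and from ZT2 to ZT14 0.93 ± 0.23, with a limma adjusted p of 0.206. Day minus night was -0.38 ± 0.15 for Bhlhe41, with a limma adjusted p of 0.381.

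Ciart was the least abundant of the 3 and the only one listed at 0 in some mice. At ZT0 the 5 mice were at 1.74, 0, 0, 3.45 and 4.29 FPKM, and at ZT2 they were at 18.4, 2.88, 5.74, 5.49 and 8.29 FPKM. At ZT4 the values were 4.19, 12.4, 15.4, 0.249 and 1.76 FPKM, and at ZT9 they were 14.3, 24.9, 9.03, 8.77 and 17.1 FPKM. At ZT14 they were 7.28, 7.10, 0.932, 10.3 and 11.8 FPKM, and at ZT19 they were 0, 0, 5.75, 1.76 and 0 FPKM. All 5 mice at ZT9 lay above all mice at ZT0 (as in 0.609% of tested genes) and at ZT19 (0.86%), which were the only times with a listed 0, and mice at ZT4 ranged from 0.249 to 15.4 FPKM. The median of 5 mice was 14.3 FPKM at ZT9, 7.28 at ZT14, 5.74 at ZT2, 4.19 at ZT4, 1.74 at ZT0 and 0 at ZT19. A listed 0 can be a failed estimate, since each library also listed at least 1 abundant gene at 0, so no mean FPKM is given for ZT0 or ZT19. The separation from ZT9 and the medians at ZT0 and ZT19 count each listed 0 as a value, and hold only as far as those zeros do. Mice above 0 at these times, at most 4.29 FPKM at ZT0 and 5.75 at ZT19, also lay below all mice at ZT9. The lowest value above 0 at ZT14, 0.932 FPKM, came from the library with many genes at 0. The mean was 14.8 ± 6.65 FPKM (SD, n = 5) at ZT9, 8.16 ± 6.04 at ZT2, 7.48 ± 4.18 at ZT14 and 6.79 ± 6.71 at ZT4.

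The fitted cosine of Ciart peaked at ZT 8.63 ± 0.68 h with an amplitude of 1.51 ± 0.32 (SE) on the log2(FPKM + 1) scale, the largest of the 3. It took up 43.3% of the variance. The limma adjusted p was 0.107 (unadjusted p = 0.000211), rank 33 of the tested genes, and the permutation test gave p = 0.00072. The amplitude depended on the value added before the logarithm because of the samples at 0, and was 2.56 ± 0.57 with 0.1 added (limma adjusted p = 0.171). Without ZT4 replicate 4, at 0.249 FPKM, Ciart passed the threshold with an amplitude of 1.62 ± 0.29 and a limma adjusted p of 0.0253, and it passed in none of the 29 other fits that left out 1 library. The next contrasts enter each listed 0 as 0 and so hold only as far as those zeros do. From ZT9 to ZT19 the level of Ciart differed by -3.04 ± 0.68, with a limma adjusted p of 0.125, and from ZT0 to ZT9 by 2.68 ± 0.68, with a limma adjusted p of 0.392. The range between the highest and the lowest time mean was 3.04, and 5.09 with 0.1 added before the logarithm. Among the 4 times without a listed 0, neighbours in the order ZT4, ZT14, ZT2, ZT9 differed by at most 0.90, with an SE of 0.68. Day minus night was 1.24 ± 0.44 for Ciart, with a limma adjusted p of 0.350.

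Counted together, 0 of the 3 genes passed the adjusted threshold of 0.05 for the 24 h rhythm, where 18 of 16741 genes did (0.108%). At an unadjusted p under 0.05, 3 of 3 passed, against 8.76% of all genes. For any difference among the 6 times the adjusted count was 0 of 3 (0.0717% of all genes) and the unadjusted count 2 of 3 (8.67%), with adjusted p of 0.618 for Bhlhe40, 0.144 for Bhlhe41 and 0.248 for Ciart by limma. For day minus night it was also 0 of 3 (0.0299% of all genes), and the unadjusted count was 2 of 3 (10.5% of all genes), Bhlhe41 lower and Ciart higher by day. In the pairs of times named here, 0 of 3 genes passed the adjusted test at ZT9 against ZT0 (0.0418% of all genes) or ZT2 (0.0239%), at ZT14 against ZT2 (0.0597%), and at ZT19 against ZT2 (0%) or ZT9 (0.0478%). Groups without overlap were shared by both DEC genes at ZT9 above ZT2 (0.627% of all genes), by Bhlhe41 and Ciart at ZT9 above ZT0 (0.609%), and by Bhlhe40 and Ciart at ZT19 below ZT9 (0.86%). Those of Ciart count its listed zeros at ZT0 and ZT19 as values. All pairs of the 6 times were compared in both directions. The pairs named are those where at least 1 of the 3 genes had no overlap. Each share is for 1 pair in 1 direction, so a gene without overlap in some pair is more common than any 1 share.

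No pair of the 3 genes had a correlation past the threshold across the 30 samples, adjusted or not. Bhlhe40 and Bhlhe41 had Pearson r = 0.27 (permutation p = 0.154, adjusted 0.426) and Spearman rho = 0.23 (permutation p = 0.216, adjusted 0.536), and r was 0.13 without the 2 samples farthest out. For Bhlhe40 and Ciart r was 0.20 (permutation p = 0.295, adjusted 0.517) and rho 0.25 (permutation p = 0.178, adjusted 0.493). For Bhlhe41 and Ciart r was 0.09 (permutation p = 0.643, adjusted 0.772) and rho 0.20. With the means of the 6 times taken out, r turned to -0.08 for Bhlhe40 and Bhlhe41, -0.18 for Bhlhe40 and Ciart and -0.01 for Bhlhe41 and Ciart. The p values were adjusted over the 36 relations of the genes with each other and with tissue scores. Bhlhe40 exceeded Bhlhe41 in 28 of 30 samples, with a median FPKM ratio of 1.65 (range 0.723 to 3.29). The median ratio was 2.40 at ZT2 and 1.25 at ZT19.

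Set among the other clock genes, the fitted peaks of the 3 repressors lay between ZT 8.63 and ZT 13.0. Nr1d1, the REV-ERB alpha repressor of Arntl, peaked at ZT 7.40 ± 0.30 h with an amplitude of 1.34, ahead of Ciart at 8.63. Dbp, a transcription factor that binds D-boxes, peaked at ZT 9.48 ± 0.33 h with an amplitude of 1.15, close to Bhlhe40 at 9.92. The Period genes, which form the main negative limb with the cryptochromes, peaked at ZT 11.5 (Per1), 11.8 (Per3) and 12.2 (Per2), just ahead of Bhlhe41 at 13.0. Arntl, which encodes BMAL1, peaked at ZT 23.5 ± 0.38 h with an amplitude of 1.55, away from all 3 repressors. The differences in peak time between genes were not tested. Of the 3, Ciart had an amplitude in the range of Nr1d1 and Arntl, while both DEC genes were below the median amplitude of 0.56 of the 23 other clock genes. For Ciart this holds with 1 added before the logarithm, since its amplitude was 2.56 with 0.1 added.

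**Figure D2:**
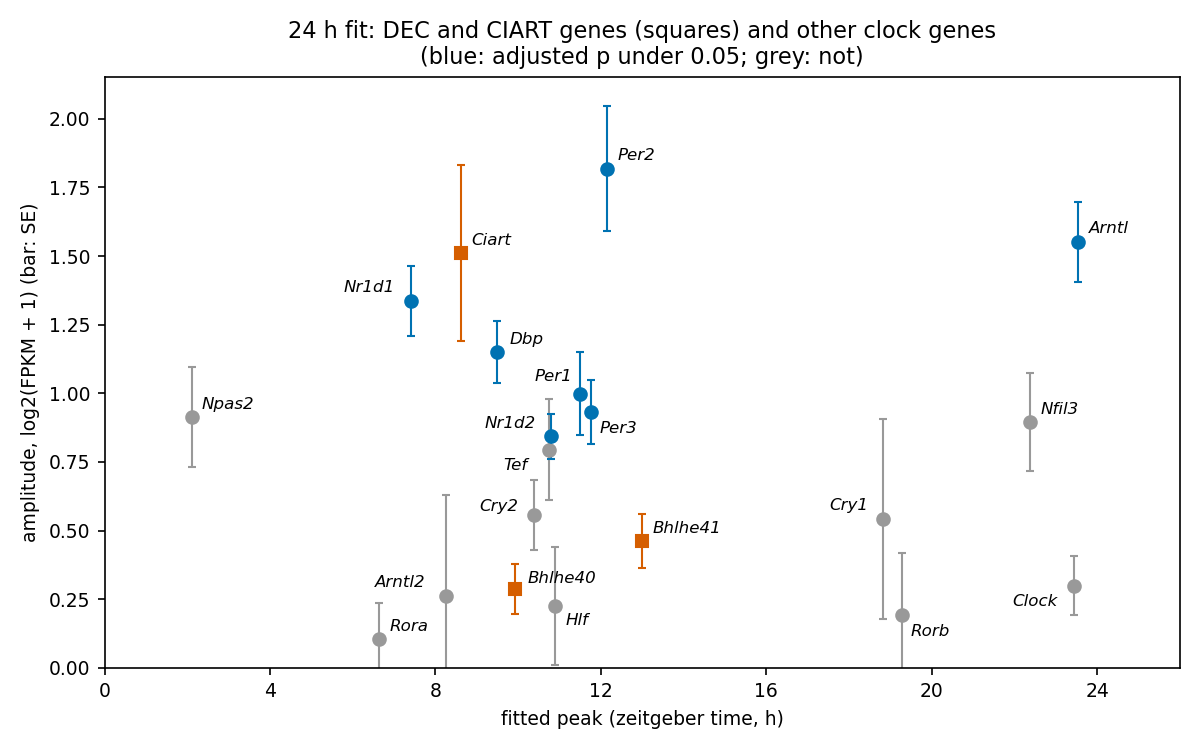
Fitted 24 h peak (horizontal axis, zeitgeber time in hours) against amplitude (vertical axis, log2(FPKM + 1), bars are SE) for Bhlhe40, Bhlhe41 and Ciart (squares) and other clock genes (circles, blue where the adjusted p was under 0.05). Ciart sits beside Nr1d1 and Dbp at amplitude 1.51, Bhlhe41 at 0.46 after the Period genes, and Bhlhe40 lowest of the 3 at 0.29.

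Of those 23 clock genes, 8 passed the adjusted rhythm test and 13 were under 0.05 unadjusted. By group, 1 of 4 activators passed (Arntl), 3 of 5 Period and cryptochrome genes, 1 of 4 PAR bZIP genes (Dbp) and 0 of 5 genes for protein turnover. The REV-ERB and ROR genes are in the count of 8 but are not given as a group. Of all tested genes, 0.108% passed and 8.76% were under 0.05 unadjusted. The median amplitude over all 16741 tested genes was 0.22. Of 7 genes for corepressors and deacetylases that clock repressors recruit, 0 passed (2 unadjusted), with a median amplitude of 0.18. Of the HES and HEY genes, the wider family of Orange-domain repressors, 6 of 10 were tested and 0 passed (1 unadjusted), with a median amplitude of 0.28. Genes induced by low oxygen, 12 of 12 tested, included 0 that passed (4 unadjusted) with a median amplitude of 0.24. Immediate early genes, 10 of 12 tested, included 0 that passed (2 unadjusted) with a median amplitude of 0.33.

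The genes whose levels followed each repressor most closely over the 30 samples differed between the 3. They share libraries, time of day and tissue mix, so r is given as a description. Ciart was closest to Afmid, a formamidase of tryptophan breakdown, with r = 0.66, then to Cuedc1 (0.58), Dbp (0.58), Spata24 (0.56) and Wisp2 (0.56). Some other clock genes were also high in this order, with Nr1d1 at r = 0.53 (rank 13), Per1 at 0.52 (rank 17), Nr1d2 at 0.52 (rank 19) and Cry2 at 0.52 (rank 21). Others were not, among them Cry1 at r = 0.03, Clock at -0.18, Arntl at -0.29 and Nfil3 at -0.32. At the other end Ciart ran opposite to Sync, a filament protein of muscle, with r = -0.69, and to Chchd3, a mitochondrial inner membrane protein, with -0.61. Afmid and Sync had low medians, 1.78 and 2.70 FPKM, and every r of Ciart enters its listed zeros as 0.

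**Figure D3:**
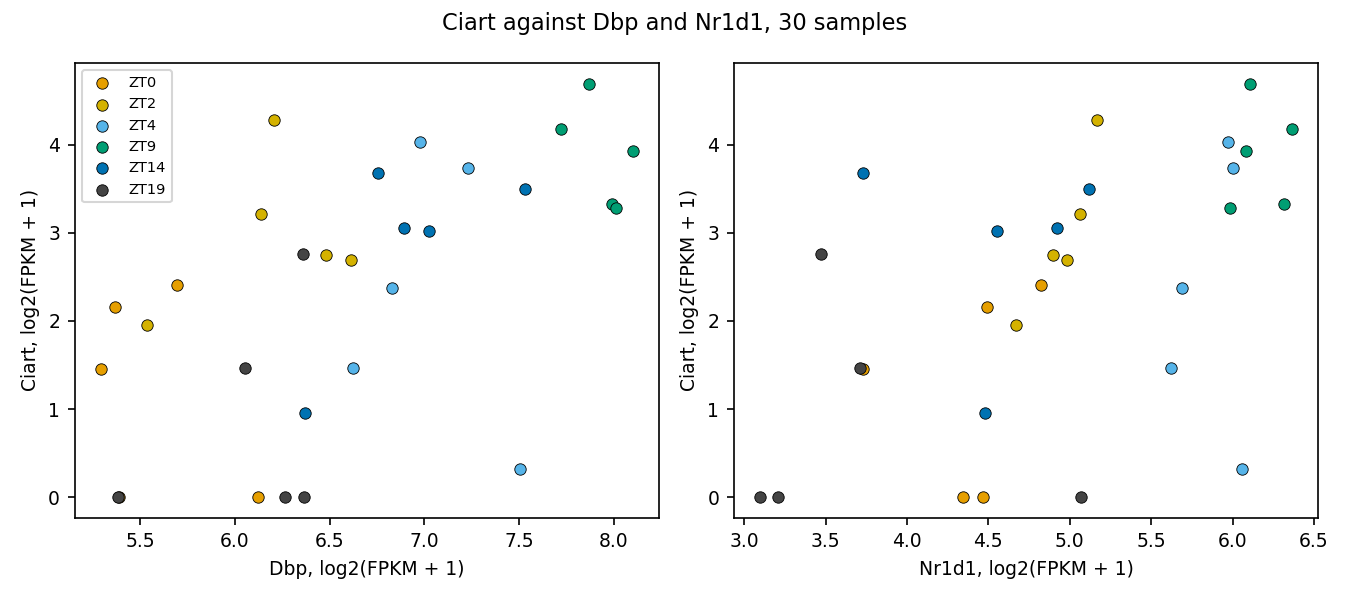
Ciart (vertical axes) against Dbp (left) and Nr1d1 (right), all as log2(FPKM + 1), in 30 samples coloured by zeitgeber time. Ciart has r = 0.58 with Dbp and r = 0.53 with Nr1d1, and the levels of Ciart at ZT9 overlap those at ZT2, ZT4 and ZT14, with 3 of 5 mice of ZT19 listed at 0 for Ciart.

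Bhlhe40 was closest to Ccnd1, which encodes cyclin D1, with r = 0.79, and Ccnd1 itself passed the rhythm test with a peak at ZT 9.22 (amplitude 0.46, limma adjusted p = 0.0171). The next were Atl3, a GTPase of the endoplasmic reticulum (0.78), Abcc4, an efflux transporter (0.74), Reep3 (0.73) and Mbnl2, a splicing regulator (0.72). The lowest r with Bhlhe40 were those of Ptp4a3, a phosphatase (-0.72), Ckb, the brain creatine kinase (-0.72), and Enox1 (-0.70). Enox1 had a low median of 1.06 FPKM. Among clock genes Per2 was highest with Bhlhe40 at r = 0.48 and Arntl lowest at -0.41.

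Bhlhe41 was closest to Ptprm, a receptor phosphatase, with r = 0.76, then Trhde, an ectoenzyme that degrades thyrotropin-releasing hormone (0.74), and Sorbs3, an adaptor of cell adhesions (0.72). Lrat, which makes the retinyl esters of the visual cycle in the RPE and is one of its markers, followed at 0.71, and Cped1 at 0.71. The lowest r with Bhlhe41 were those of Mmp14, a membrane metalloprotease (-0.72), Mx1, an interferon-induced GTPase (-0.72), and Rpl9-ps6 (-0.71), a ribosomal pseudogene whose reads can be shared with its parent gene. Of these Mmp14 passed the rhythm test, with a peak at ZT 2.09 (limma adjusted p = 0.0404). Mx1 and Rpl9-ps6 had low medians, 0.97 and 3.94 FPKM. Among clock genes Per3 was highest with Bhlhe41 at r = 0.63, and Npas2 (-0.57), Arntl (-0.56) and Nfil3 (-0.53) were lowest.

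RPE and surface epithelium markers moved with Bhlhe41. The mean log2(FPKM + 1) of the 12 RPE markers had r = 0.60 with Bhlhe41 over 30 samples (permutation p = 0.00041, adjusted 0.0148) and rho = 0.60 (permutation p = 0.00057, adjusted 0.0205). Without the 2 samples farthest out r was 0.47, and with the means of the 6 times taken out it was 0.50. For description, animal numbers were cut into 3 runs after 825 and 845, a split that the labels do not give. Gaps also lie inside the runs, such as from 871 to 882. Within the runs r was 0.76 (8 mice, 818 to 825), 0.55 (13 mice, 830 to 845) and 0.62 (9 mice, 861 to 889). The score of 10 surface epithelium markers went the other way, with r = -0.57 (permutation p = 0.00127, adjusted 0.0229) and rho = -0.56 (permutation p = 0.00129, adjusted 0.0232). Without the 2 farthest samples this r was -0.64, with time means taken out -0.54, and within the 3 runs -0.75, -0.35 and -0.88. These were the only 2 of the 36 relations with an adjusted p under 0.05 by Pearson r. Next came 3 relations with an adjusted p of 0.0999, those of Ciart with skeletal muscle (r = -0.45, permutation p = 0.0120), Bhlhe40 with immune markers (r = -0.46, permutation p = 0.00972) and Bhlhe41 with stroma (r = 0.44, permutation p = 0.0139). Within the 3 runs, r was -0.77, -0.22 and -0.27 for Ciart with muscle, -0.35, -0.69 and -0.07 for Bhlhe40 with immune markers, and 0.74, 0.37 and 0.45 for Bhlhe41 with stroma.

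**Figure D4:**
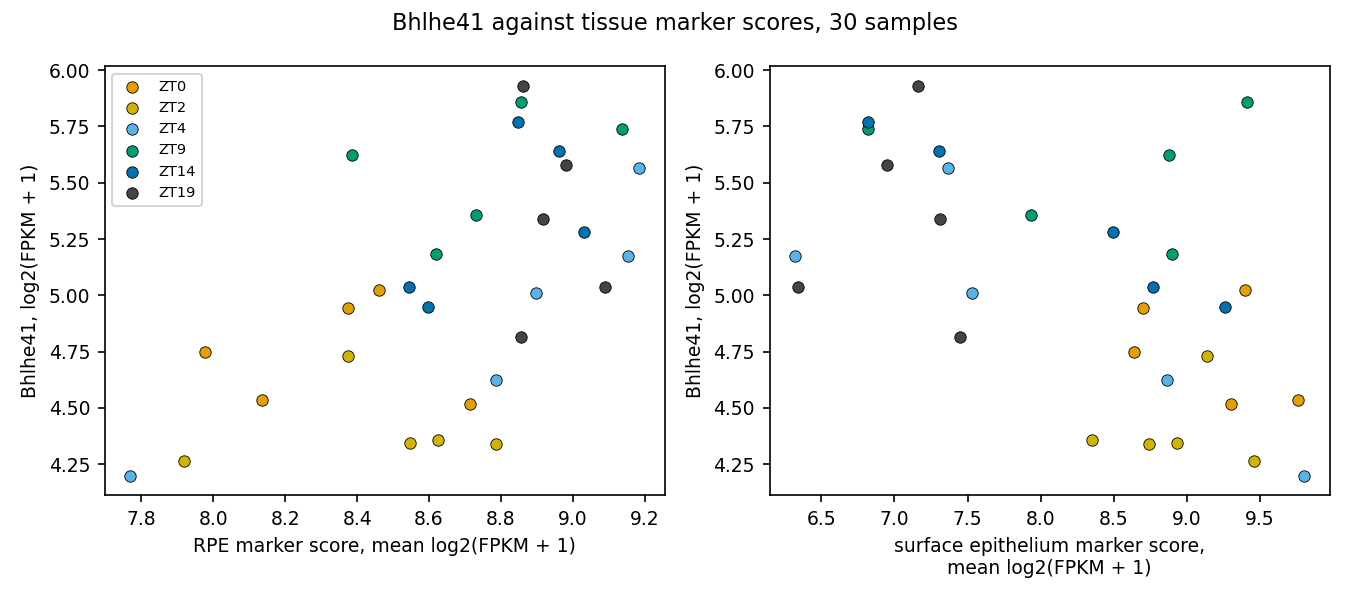
Bhlhe41 as log2(FPKM + 1) (vertical axes) against the mean log2(FPKM + 1) of RPE markers (left) and of surface epithelium markers (right) in 30 samples coloured by zeitgeber time. Bhlhe41 was higher where RPE markers were higher (r = 0.60) and lower where surface epithelium markers were higher (r = -0.57).

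The summed FPKM of both marker sets also varied between times, which was not tested. RPE markers summed to between 6785 and 12119 FPKM at ZT2, 9552 and 16960 at ZT9, and 13445 and 17484 at ZT19. Surface epithelium markers summed to between 9187 and 14742 FPKM at ZT2, 1938 and 16606 at ZT9, and 1941 and 3124 at ZT19. At ZT4 the ranges were wide, 5896 to 19074 FPKM for RPE and 1688 to 17614 for surface epithelium markers. With both scores as terms in the fit, an alternative added after these relations were seen, the amplitude of Bhlhe41 was 0.37 ± 0.10 with a peak at ZT 12.2 (limma adjusted p = 0.360). Its day minus night difference then was -0.19 ± 0.15 (limma adjusted p = 0.978). For Ciart the same terms left an amplitude of 1.53 ± 0.34. With scores of 5 tissues (rod, stroma, surface epithelium, skeletal muscle and myelin) it was 1.22 ± 0.34 (limma adjusted p = 0.456). No fit used the score of any of these 5 tissues alone, and the cause was not tested. Skeletal muscle markers summed to between 3722 and 9469 FPKM at ZT9 and 7191 and 28553 at ZT19, ranges that overlap.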

How the data were processed

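RNA from 30 RPE samples, each 1 eye of a separately numbered mouse, was sequenced as single reads of 75 bases, per the labels' protocols. The authors deposited 1 FPKM per gene and sample, with a comma as decimal mark, and that unit is taken from the table's name. Per the submitters' processing notes, the tools were Cufflinks, STAR and DESeq2 and the build mm10, with no version or role stated. No count model was fitted, since only FPKM were read. The samples fall into 6 times of 5, and replicate numbers follow accession order only.

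Genes with at least 1 FPKM in at least 5 samples (16741) were analysed as log2(FPKM + 1) in R 4.3.3 with limma 3.58.1, letting the prior variance follow the mean. Fold differences are on that scale, which understates changes of low genes, and values at 0 enter it as 0. A 24 h cosine was tested with the moderated F test, as were the 6 time means and contrasts between them, two-sided, with Benjamini-Hochberg adjustment over all tested genes at 0.05. Correlations were tested with 100000 permutations. Scripts were tested on simulated data. Gene positions came from GENCODE M21 (51625 of 51904 IDs found). Read depth was estimated from the step between low values, with 199 bases taken off exon length.

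The genes and all lists were chosen with earlier results of these data known. The text names the 3 genes, the listed clock genes and, for each of the 3, the 5 tested genes with the highest r and the 3 with the lowest, except 1 gene of the lowest for Ciart that is not reported here. Alternatives were the value added (0.1 or 0.5), the filter, the scaling, the variance trend, covariates, a 12 h term and leaving out each library.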

Additional observations from a re-analysis of the deposited data

Results flagged for a closer look

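In 2 of the 18 groups of 5 mice (3 genes at 6 times), 1 mouse lay far from the other 4 by Dixon's test, which chance alone does in about 1 in 20 groups. Bhlhe40 was at 95.4 FPKM in ZT9 replicate 3, against 59.9 to 68.9 in the other mice of that time. Without that mouse the fitted amplitude of Bhlhe40 was 0.24, the lowest of the fits that left out 1 library. Bhlhe41 was at 25.5 FPKM in ZT2 replicate 1, against 18.2 to 19.5 in the other mice of that time.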

How the results depend on the processing

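No call on a 24 h rhythm of the 3 genes changed under the 12 other settings. Leaving out each of the 30 libraries gave Ciart amplitudes of 1.42 to 1.66 (limma adjusted p 0.0253 to 0.217), past the threshold only without ZT4 replicate 4 (amplitude 1.62); the cause was not tested. The same gave Bhlhe41 amplitudes of 0.44 to 0.51 (adjusted p 0.0520 to 0.221) and Bhlhe40 amplitudes of 0.24 to 0.33 (adjusted p 0.313 to 0.575). Under the other settings the amplitude ranged from 1.22 to 2.56 for Ciart, 0.37 to 0.48 for Bhlhe41 and 0.24 to 0.33 for Bhlhe40. Day minus night of Bhlhe40 turned from 0.08 to -0.06 with 5 marker scores as terms (-0.058) and with RPE and surface epithelium scores (-0.063, added after the data were seen); neither passed the threshold, and the cause was not tested. That of Ciart ranged from 0.73 to 2.17 and that of Bhlhe41 from -0.39 to -0.19. Counts of genes with a rhythm stayed between 14 and 24. No paired analysis was made because each library came from a separately numbered mouse. Of the 3 genes, Ciart had the lowest level and the fewest estimated reads per FPKM, and its listed zeros cannot be told apart from failed estimates.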
